A study of Mus musculus with 49 samples.

Results

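Mouse liver 4 d after an overdose of acetaminophen (paracetamol, APAP) was set against control liver. The members were chosen by their titles, APAP_4day and APAP_control, and make up 10 of the 49 arrays of the series, 5 in each group. All animals were male C57BL6/N mice. The 4 d mice were fasted overnight, given 300 mg/kg APAP as 1 intraperitoneal injection in phosphate-buffered saline, and had free access to food after that. The control group is labelled as having no treatment. The sources used here do not give whether its mice were fasted or injected with vehicle, so drug and feeding history cannot be told apart in this comparison. Liver RNA was hybridised to Affymetrix mouse genome arrays, which read each transcript with sets of short probes (probe sets), and the deposited values are log2 expression levels. Arrays at 2 d and 6 d after the same dose, 5 in each group, show where 4 d stands between its neighbours in time. Of the 45101 probe sets, 8137 had a value on all 49 arrays, and those with a single gene symbol gave the 5976 genes tested.

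Hepatocytes around the central vein convert APAP, largely through the cytochrome P450 Cyp2e1, into a reactive quinone imine that uses up glutathione and binds to proteins, and these cells die. In the repair that follows, macrophages clear the dead cells, stellate cells lay down matrix for a time, and surviving hepatocytes re-enter the cell cycle. Lipid metabolism in liver is governed by sterol and carbohydrate response factors, which drive the synthesis of cholesterol and fatty acids, and by PPAR alpha, a fatty acid receptor that drives fatty acid oxidation in fasting.

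The 4 d livers had high levels of lipid synthesis genes, low levels of PPAR alpha target genes, and raised levels of DNA replication, mitosis and macrophage genes. With limma 988 genes were called, meaning that their p-value, adjusted by Benjamini and Hochberg over the 5976 genes, was under 0.05. Of all genes tested, 597 (9.99%) were higher and 391 (6.54%) lower at 4 d, and 192 of the higher and 40 of the lower genes differed at least 2-fold. All 4 d arrays lay above all control arrays for 491 genes (8.22%) and below them for 232 (3.88%). The median difference over all genes was -0.02 on the log2 scale. The balance of the calls depended on the scaling: after quantile normalization over the tested probe sets 604 genes were higher and 749 lower, so that 44.6% of the calls were higher instead of 60.4%. The p-values rest on the spread of arrays within their groups, pooled over all 49 arrays. The labels do not say that each array came from its own mouse, so this spread may be technical. With the fit limited to the 4 d and control arrays, 520 genes were higher and 225 lower. In whole liver, fewer cells of a type and less RNA per cell cannot be told apart.

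An array of each group stood apart. The mean log2 value per array ran from 6.16 to 6.46 over the series. Control replicate 3 had the lowest mean and the lowest SD over genes (2.23, where the highest was 2.48), and lay outside the range of the other control arrays for 4355 genes, by more than 1 on the log2 scale for 110 of them. Without it, 498 genes were higher and 546 lower at 4 d. Replicate 1 of 4 d is described further on. The hepatocyte markers were high in both groups: the 7 measured of 18 listed (Apoa1, Apoa2, Apoc3, Fgg, Ambp, Apoh and Cyp2e1) lay between 12.85 and 14.03, near the top of the range. Their summed log2 values were 94.51 to 94.90 at 4 d and 94.67 to 94.98 in control, and Ambp, the precursor of bikunin, was the only one called (0.31). Probe sets this bright are close to saturation, so these sums cannot show whether the hepatocyte content of the groups was alike.

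Fatty acid synthesis genes were among the largest rises. Thrsp, a nuclear protein that promotes lipogenic gene expression, had log2 levels of 13.01, 12.39, 12.18, 12.67 and 12.52 on the 4 d arrays, against 6.10, 6.19, 6.23, 7.57 and 7.90 on the control arrays. The groups were far apart, with control replicates 4 and 5 above the other controls, and Thrsp rose by 5.76 ± 0.47 (log2, SE), or 54.2-fold (limma adjusted p = 2.9e-12). Thrsp rests on a probe set whose name marks possible binding of other transcripts of the same or another gene, and had no unmarked probe set. Fasn, the fatty acid synthase, had log2 levels of 11.88, 10.91, 10.76, 10.94 and 11.16 at 4 d, against 7.15, 7.44, 7.09, 8.00 and 7.64 in control. Every 4 d array was well above every control array, and the rise was 3.67 ± 0.29 (12.7-fold, limma adjusted p = 2.4e-12). Scd2, a fatty acid desaturase, had log2 levels of 8.07, 7.44, 9.83, 7.65 and 8.42 at 4 d, against 4.29, 4.37, 3.17, 4.18 and 4.40 in control. It rose by 4.20 ± 0.36 (18.4-fold) without overlap, with replicate 3 the highest 4 d array and control replicate 3 the lowest control, and its other probe sets gave differences of 2.09 and 0.52.

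Of the 15 measured genes of de novo lipogenesis, 10 rose, 0 fell and 5 were not called, with a median difference of 0.96, against -0.02 over all genes. That median is the value of Scd1, and with each gene taken as the average of its probe sets the de novo lipogenesis list had 10 rises and a median of 1.43. The rises included Acss2, which makes acetyl-CoA from acetate (2.91), Elovl6, the elongase of saturated fatty acids (2.78), Gpam, which starts glycerolipid synthesis (1.62), Pklr, the liver pyruvate kinase (1.60), Fads1, a desaturase of polyunsaturated fatty acids (0.82), and Mlxipl, the carbohydrate response factor ChREBP (0.72). Scd1, the main desaturase of adult liver, rose by 0.96 on a probe set close to saturation (13.76 at 4 d and 12.80 in control), and its other probe set gave 3.61. Elovl5 (-0.20), Dgat2 (0.15), Fads2 (0.45), Pnpla3 (0.46) and Me1, the malic enzyme (0.72, limma adjusted p = 0.053), were not called. The Me1 difference was 0.33 without replicate 1 of 4 d and the Elovl5 difference -0.36. Elovl5 was at -0.09 without control replicate 1, and Fads2 at 0.04 without control replicate 2. Of the 6 measured genes of the pentose phosphate and NADPH list, which supply reducing power for lipid synthesis, 3 rose and 0 fell: Pgd (1.99) and Rpia (0.67) of the pentose phosphate pathway, and Idh1, a cytosolic isocitrate dehydrogenase (0.69). Rpia was not called without replicate 1 or 5 of 4 d (0.44 and 0.67) or control replicate 3 (0.45). Pgd and Idh1 rest on probe sets marked for possible binding of other transcripts, and had no unmarked probe set.

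Cholesterol synthesis genes rose nearly throughout. Of 11 measured genes 10 rose, 0 fell and Hsd17b7 (0.50) was not called, with a median of 2.96. In the order of the pathway, the rises were Mvk (1.63), Mvd (2.32), Idi1 (3.53), Fdps (3.93), Sqle (3.05), Lss (2.96), Cyp51 (2.97), Msmo1 (2.87), Nsdhl (3.07) and Ebp (0.94). Fdps, which makes farnesyl diphosphate, had log2 levels of 12.55, 12.19, 12.51, 12.53 and 12.33 at 4 d, against 8.65, 7.80, 7.69, 9.83 and 8.51 in control (15.2-fold, limma adjusted p = 2.1e-10). Idi1, the isopentenyl diphosphate isomerase, had log2 levels of 10.43, 10.65, 10.90, 10.32 and 10.34 at 4 d, against 7.46, 7.16, 6.02, 8.39 and 5.99 in control (limma adjusted p = 1.5e-05). The 4 d arrays lay close together and above all controls, while the controls were spread, with replicate 4 the highest for both genes. Lss rests on a probe set marked for possible binding of other transcripts, and its unmarked probe set gave 1.33, while a dimmer second probe set of Cyp51 was at 6.39 at 4 d and 4.87 in control, a smaller difference. Idi1 and Msmo1 also rest on marked probe sets, and had no unmarked probe set. With each gene taken as the average of its probe sets, the cholesterol synthesis list again had 10 rises and a median of 2.32. The median of the list, relative to the control mean, was 2.71 to 3.16 on the 4 d arrays, and ran from -0.83 on control replicate 3 to 1.09 on control replicate 4. Without control replicate 3, 10 genes of the cholesterol synthesis list rose and its median was 2.70.

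Promoters of lipid synthesis genes are shown because these genes moved together, and because sterol response factors act there beside NF-Y, which binds CCAAT. The 250 bases before a transcript start of each gene are given 5′ to 3′ on the strand of the gene, from RefSeq on GRCm38.p6. They are chr11:120824548-120824797 (minus strand) for Fasn, chr13:8885356-8885605 (plus strand) for Idi1 and chr10:76531355-76531604 (plus strand) for Lss, the lanosterol synthase. The annotated gene begins 619 bases further upstream for Fasn and 40 for Lss, so these windows overlap the gene. Capitals mark CCAAT or its reverse complement ATTGG, which overlap at 1 place in Fasn.
Fasn: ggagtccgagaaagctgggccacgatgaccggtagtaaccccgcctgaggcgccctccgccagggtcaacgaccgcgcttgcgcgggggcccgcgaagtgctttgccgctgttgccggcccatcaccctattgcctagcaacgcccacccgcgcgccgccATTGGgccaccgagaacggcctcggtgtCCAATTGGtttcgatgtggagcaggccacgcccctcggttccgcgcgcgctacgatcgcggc
Idi1: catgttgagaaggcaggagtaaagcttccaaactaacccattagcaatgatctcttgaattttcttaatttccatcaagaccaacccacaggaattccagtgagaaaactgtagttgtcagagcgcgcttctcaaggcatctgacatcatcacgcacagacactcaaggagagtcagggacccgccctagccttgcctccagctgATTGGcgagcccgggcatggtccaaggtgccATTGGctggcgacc
Lss: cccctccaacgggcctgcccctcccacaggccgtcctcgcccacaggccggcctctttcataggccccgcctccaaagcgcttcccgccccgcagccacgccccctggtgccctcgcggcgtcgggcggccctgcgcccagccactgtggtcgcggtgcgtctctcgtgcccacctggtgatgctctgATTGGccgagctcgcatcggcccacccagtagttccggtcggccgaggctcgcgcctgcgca
On either strand CCAAT was present in 9 of 9 promoters found for the cholesterol list and in 9 of 15 (60.0%) for the lipogenesis list, against 33.8% of all 32851 promoters of this length. The E-box CACGTG was in 1 of 9 and 2 of 15 (6.02% of all promoters), and the sterol element TCACNCCAC in 0 of 9 and 1 of 15 (1.05% of all). These are matches of letters, and binding was not measured here.

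PPAR alpha targets and fatty acid oxidation genes were lower. Of 16 measured, 0 rose, 9 fell and 7 were not called, with a median of -0.78. Vnn1, a pantetheinase under PPAR alpha control, had log2 levels of 7.69, 6.93, 7.83, 7.74 and 7.91 at 4 d, against 11.46, 11.64, 11.03, 10.54 and 10.27 in control. It was lower on every 4 d array, most so on replicate 2, and fell by 3.37 (10.3-fold, SE 0.44, limma adjusted p = 2.1e-07). Cyp4a14, a fatty acid omega-hydroxylase, had log2 levels of 10.21, 9.46, 10.01, 9.67 and 10.13 at 4 d, against 13.43, 13.11, 13.38, 12.89 and 12.97 in control. The groups again did not overlap (-3.26 ± 0.54, limma adjusted p = 1.6e-05).

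The other falls in this list were smaller and covered several steps of fatty acid use. They were Pex11a, a factor of peroxisome division (-1.35), Crat, the carnitine acetyltransferase (-1.03), Slc25a20 and Cpt2 of the mitochondrial carnitine shuttle (-0.77 and -0.75), and Acadm, Eci1 and Decr1 of beta-oxidation (-0.75, -0.79 and -0.71). Pdk4, an inhibitor of pyruvate oxidation (0.95), Angptl4 (0.32), Fabp1 (-0.23), Acot2 (-1.21), Acot3 (-0.89), Acot4 (-0.37) and Fgf21 (-0.85) were not called. Outside the list, Slc22a5, the carnitine transporter of the cell membrane (-1.61), and Fabp2, a fatty acid binding protein (-1.59), were among the leading falls. The count of falls in the PPAR alpha list was 9 without replicate 1 of 4 d and 9 without control replicate 3.

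**Figure D1:**
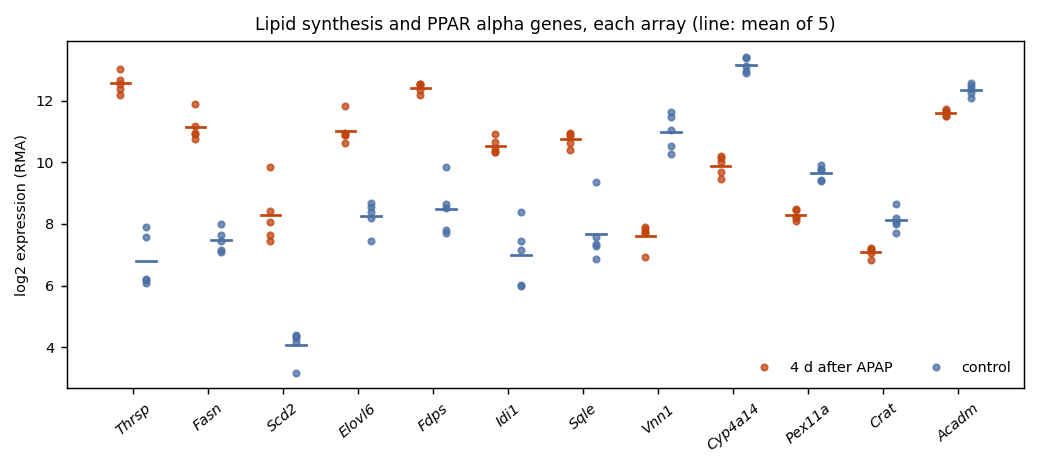
Log2 expression (vertical axis) of lipid synthesis genes and PPAR alpha genes on each array, with 4 d after APAP (orange) left of control (blue); short lines are means of 5 arrays. For Thrsp, Fasn, Scd2, Elovl6, Fdps, Idi1 and Sqle all 4 d arrays lay above all control arrays, and for Vnn1, Cyp4a14, Pex11a, Crat and Acadm all lay below them.

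Promoters of Mcm6 and Mcm5, subunits of the helicase that opens DNA for copying, are shown because replication genes were raised together and are known targets of E2F factors. They are chr1:128359706-128359955 (minus strand) for Mcm6 and chr8:75109259-75109508 (plus strand) for Mcm5, again 250 bases before a start on GRCm38.p6 from RefSeq, and the annotated Mcm5 gene begins 41 bases further upstream. Capitals mark CCAAT or ATTGG and the E2F sites TTTCGCGC or TTTGGCGC, on either strand, with overlapping matches run together.
Mcm6: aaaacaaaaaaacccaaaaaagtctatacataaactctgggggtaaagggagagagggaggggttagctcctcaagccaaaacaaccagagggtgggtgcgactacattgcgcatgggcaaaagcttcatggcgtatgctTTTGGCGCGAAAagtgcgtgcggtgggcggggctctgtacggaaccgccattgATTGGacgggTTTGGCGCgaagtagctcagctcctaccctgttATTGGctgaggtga
Mcm5: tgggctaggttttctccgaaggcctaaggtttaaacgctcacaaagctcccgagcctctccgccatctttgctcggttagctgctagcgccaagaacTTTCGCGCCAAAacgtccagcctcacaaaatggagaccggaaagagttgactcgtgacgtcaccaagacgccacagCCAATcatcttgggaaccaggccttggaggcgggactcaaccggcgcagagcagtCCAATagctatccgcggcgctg
An E2F site of these letters was in 6 of 28 promoters of the replication list (21.4%), against 0.654% of all promoters, and in 0 of those of the lipogenesis and cholesterol lists. CCAAT was in 19 of the 28 (67.9%).

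DNA replication genes were higher at 4 d: 20 of 26 measured rose, 0 fell and 6 were not called, with a median of 0.85. Mcm6 had log2 levels of 8.05, 7.97, 8.15, 7.67 and 7.98 at 4 d, against 4.92, 5.49, 4.77, 5.07 and 5.66 in control. The 4 d arrays were close together and all well above the controls (2.78 ± 0.30, 6.87-fold, limma adjusted p = 2.6e-09). Mcm5 had log2 levels of 6.01, 5.90, 6.07, 5.70 and 6.33 at 4 d, against 4.27, 3.84, 4.56, 4.32 and 4.36 in control (1.73), and Mcm3 (2.20), Mcm4 (1.62) and Mcm7 (0.73) of the same complex rose too. The Mcm3 value comes from a probe set whose name marks possible binding of other transcripts, and its unmarked probe set, at 3.66 and 3.44 near the dim end, gave 0.22 (limma adjusted p = 0.22). Hells, a chromatin remodeller of dividing cells (2.30), Rrm2, a subunit of ribonucleotide reductase (1.87), Fen1, which trims Okazaki fragments (1.29), Rpa1, which coats single-stranded DNA (1.10), and Pcna, the polymerase clamp (0.78), also rose. Rfc1, Rfc2, Rfc3, Cdc45, Orc1 and Orc6 were not called (-0.03 to 0.49). In the DNA replication list 16 genes rose without replicate 1 of 4 d and 18 without control replicate 3.

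Of 13 measured mitosis genes 9 rose, 0 fell and 4 were not called, with a median of 1.30. Ect2, a regulator of cytokinesis, had log2 levels of 6.77, 5.28, 5.02, 4.89 and 5.84 at 4 d, against 2.79, 2.89, 3.07, 2.76 and 3.33 in control (2.59 ± 0.34, limma adjusted p = 1.5e-07). Replicate 1 was the highest 4 d array, and the controls all lay in the lowest 10% of values, those under 3.39. Cdc20, an activator of anaphase (2.38), Stmn1, which destabilises microtubules (2.05), Mad2l1, of the spindle checkpoint (1.83), Racgap1 (1.38) and Prc1 (1.30) of the dividing spindle, Cks2 (0.94) and Nusap1, a spindle protein (2.00), rose too. A dim second probe set of Nusap1 gave 0.04. Cks1b, a partner of cyclin-dependent kinases, was called (0.63), but not without replicate 1 or 4 of 4 d or control replicate 3 or 4 (0.52 to 0.62). In the mitosis list 8 genes rose without replicate 1 of 4 d. Without probe sets marked for possible binding of other transcripts of the same or another gene, 4 of 8 rose. The median of the mitosis list was then 0.74.

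Among 16 measured cell cycle regulators 5 rose and 1 fell, with a median of 0.28. The cyclin genes Ccna2 (2.23), Ccnd1 (1.99) and Ccne2 (1.07) rose, as did the inhibitory kinase Wee1 (0.98) and the kinase inhibitor Cdkn2c (0.85). Ccnd3, the cyclin D3 gene, fell by 0.54, a call lost without replicate 3 of 4 d (-0.46) or control replicate 5 (-0.47). Cdkn1a, the p21 inhibitor, was not called (0.74).

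Macrophage genes were higher at 4 d. In the monocyte and macrophage list 16 of 19 measured genes rose, 0 fell and 3 were not called (Cd14, Itgam and Spi1, 0.15 to 0.20), with a median of 1.15. The summed log2 values were 131.29 to 148.79 at 4 d and 114.37 to 123.20 in control. Lyz2, the lysozyme of myeloid cells, had log2 levels of 11.79, 11.52, 10.30, 10.77 and 11.55 at 4 d, against 8.56, 9.0, 8.25, 8.46 and 8.65 in control. Replicates 3 and 4 were the lowest of the 4 d arrays and still above every control (2.60 ± 0.29, 6.06-fold, limma adjusted p = 6.9e-09). Chil3, a chitinase-like protein (1.89), the chemokine Ccl9 (1.59), the oxidase subunit Cybb (1.51), the complement subunits C1qb (1.38) and C1qa (1.25), the pan-leukocyte phosphatase Ptprc (1.37), the receptor Csf1r (0.99) and the monocyte receptor Ccr2 (0.80) rose with it. Itgam was at most 4.45 on every array.

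In the list of lipid-associated macrophages, cells that gather at damaged and lipid-laden tissue, 4 of 7 measured genes rose and 0 fell, with summed levels of 61.00 to 64.11 at 4 d and 50.94 to 56.38 in control. They were Fabp5, a fatty acid binding protein (2.86), Lpl, the lipoprotein lipase (1.67), Trem2, a lipid receptor (1.03), and Ctsb, a lysosomal protease (0.75). Trem2 rests on a probe set marked for possible binding of other transcripts, and its unmarked probe set gave 0.15 (limma adjusted p = 0.72). Cd9 was not called (0.51). Of 4 measured genes of resident Kupffer cells, Id3, a regulator of their identity, fell by 1.51, and the others, Cd163 among them, were not called.

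Markers of other blood cells showed few calls. Of 8 neutrophil genes 0 were called by limma and 1 had an unadjusted p under 0.05, S100a8 (1.60, limma adjusted p = 0.077), with sums of 40.37 to 42.19 at 4 d and 38.95 to 41.93 in control. Of 11 T and NK cell genes Thy1 alone was called (-0.40), but not without replicate 2 or 3 of 4 d or control replicate 1 or 3 (-0.32 to -0.38), and all lay between 3.24 and 6.28, with sums of 49.68 to 51.97 at 4 d and 50.97 to 57.37 in control. Of 6 B and plasma cell genes 0 were called by limma and 2 had an unadjusted p under 0.05, with sums of 26.70 to 27.81 at 4 d and 26.13 to 28.68 in control.

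Among the other cell types, 1 of 8 endothelial genes rose (Gpr182, 0.74), with sums of 52.34 to 55.35 at 4 d and 49.80 to 52.59 in control. Of 7 bile duct genes Prom1 rose (0.58), and this call was lost when any 1 of replicates 1, 3 and 5 of 4 d or 2, 4 and 5 of control was left out (0.44 to 0.60). Of 5 genes of quiescent stellate cells Lrat, which stores retinol as esters, rose (0.84), a call lost without replicate 5 of 4 d or control replicate 2 or 3 (0.58 to 0.76). The part that changed numbers of macrophages or other cells had in the other results was not tested.

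Matrix genes were raised in part. Of 6 measured collagen genes 3 rose and 0 fell. Col1a2, a chain of type I collagen, had log2 levels of 6.57, 6.17, 5.33, 5.63 and 5.74 at 4 d, against 3.93, 4.27, 4.74, 4.21 and 4.03 in control. The groups did not overlap, with replicates 1 and 2 the highest 4 d arrays (1.65 ± 0.26, limma adjusted p = 7.2e-06). Col5a2 (1.48) and Col5a1 (0.79) of type V collagen rose, although a second probe set of Col5a1 gave 0.29 (limma adjusted p = 0.15), and Col1a1 was not called (0.47). Acta2, the smooth muscle actin that defines myofibroblasts, had log2 levels of 6.94, 6.13, 5.85, 6.25 and 6.13 at 4 d, against 5.97, 5.21, 6.23, 6.08 and 5.81 in control. Its groups overlapped and it was not called (0.40, limma adjusted p = 0.29).

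In the wider myofibroblast and matrix list 6 of 21 genes rose and 0 fell, with a median of 0.42 and summed levels of 126.87 to 137.50 at 4 d and 119.99 to 124.70 in control. The proteoglycans Lum (2.38) and Bgn (0.61), the matricellular proteins Sparc (1.63), Postn (1.56) and Tgfbi (0.75), and Tagln, a smooth muscle protein (0.92), rose. Tagln was not called without replicate 1 of 4 d (0.75), and 9 genes of the myofibroblast and matrix list rose without control replicate 3. Ccn2, a growth factor of the matrix, was not called (-0.59). Among 19 annexin, S100 and cytoskeleton genes 7 rose and 1 fell. The rises were the calcium-binding protein S100a6 (3.24), the galectin Lgals1 (2.89), the annexins Anxa2 (2.17) and Anxa4 (0.80), the tubulins Tubb6 (1.62) and Tuba1a (1.18), and Tmsb4x, which binds actin monomers (1.23). The fall was Anxa7 (-0.34), not called without replicate 1 of 4 d or control replicate 5 (-0.29 to -0.31). Most of these rises rest on probe sets whose names mark possible binding of other transcripts of the same or another gene: without such probe sets 2 of 10 genes of the annexins, S100 and cytoskeleton list were higher and 1 lower, and the median was 0.12 instead of 0.47.

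Hepatocyte transcription factors were lower in part. Foxa1, which opens chromatin at liver genes, had log2 levels of 7.96, 7.56, 7.46, 7.35 and 7.25 at 4 d, against 8.82, 9.40, 9.09, 9.38 and 9.28 in control. No 4 d array reached the lowest control (-1.68 ± 0.24, limma adjusted p = 1.5e-06). Of 9 measured factors 4 fell and 1 rose. Foxa2 fell by 1.07. Onecut1 (-1.53), Cebpa (-0.48) and Cebpb (0.53) were near the threshold, and each was not called without several single arrays: replicates 1, 2 and 4 of 4 d and 2, 4 and 5 of control for Onecut1 (-1.24 to -1.59), 1 and 2 of 4 d and 1, 4 and 5 of control for Cebpa (-0.41 to -0.46), and 4 and 5 of both groups for Cebpb (0.47 to 0.52). Hnf4a, which maintains hepatocyte identity, was not called (-0.35).

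Heat shock genes were lower: 6 of 9 measured fell and 0 rose, with a median of -0.60. Hspb1, a small chaperone, had log2 levels of 8.42, 8.57, 7.78, 8.11 and 8.40 at 4 d, against 10.80, 10.42, 10.34, 10.39 and 10.24 in control. The groups were well apart (-2.18 ± 0.36, limma adjusted p = 1.2e-05). The chaperones and co-chaperones Hsph1 (-1.33), Dnajb1 (-1.09), Bag3 (-0.98), Dnaja1 (-0.60) and Hspa8 (-0.36) fell too. Hspb1 and Hsph1 rest on probe sets marked for possible binding of other transcripts, and had no unmarked probe set. Bag3 was not called without replicate 2 or 3 of 4 d or control replicate 4 (-0.89 to -0.91), nor Hspa8 without replicate 3 of 4 d or control replicate 1 or 5 (-0.32 to -0.35). Of 13 genes of the unfolded protein response, Ddit3, the stress factor CHOP, alone was called (-1.46).

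Genes of drug handling moved in both directions. Of 19 cytochrome P450 genes 3 rose, 4 fell and 12 were not called, with a median of -0.01. Cyp2c55 had log2 levels of 8.07, 9.05, 9.02, 9.16 and 9.24 at 4 d, against 5.55, 5.65, 6.13, 5.61 and 6.24 in control. Replicate 1 was the lowest 4 d array, and all were above the controls (3.07 ± 0.29, 8.39-fold, limma adjusted p = 7.6e-11). Cyp4f14 (1.62) and Cyp2j6 (0.87) also rose, and Cyp2c37 (-1.74), Cyp2d9 (-0.56), Cyp2c39 (-0.51) and Cyp2d10 (-0.49) fell. Cyp2e1, which activates APAP, was 13.31 to 13.55 at 4 d and 13.64 to 13.88 in control, close to saturation, and was not called (-0.24, limma adjusted p = 0.14), although its groups did not overlap.

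Of 12 measured targets of NRF2, the factor that answers oxidative stress, 5 rose and 1 fell. The rises were the glutathione transferases Gstm2 (1.58), Gsta4 (1.33), Gsta2 (1.16) and Gstm1 (0.82), close paralogs whose probe sets may share signal, and Ugdh, which makes UDP-glucuronic acid (0.61). Gsr, the glutathione reductase, fell by 0.46, a call lost without replicate 4 of 4 d or control replicate 2 (-0.41). Nqo1 (0.42), Gclm (-0.18), Srxn1 (0.01), Txnrd1 (0.03) and Slc7a11 (-0.01) were not called. Of 11 bile acid genes 0 rose and 3 fell: Slco1a1, an uptake transporter (-1.79), Cyp7b1, of the alternative synthesis pathway (-1.41), and Acox2, which shortens the side chain (-0.37). Acox2 was not called without replicate 1 or 5 of 4 d or control replicate 1 or 5 (-0.31 to -0.34). Cyp7a1, the rate-limiting enzyme, was not called (1.42, limma adjusted p = 0.14).

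Genes known to be higher in male than in female mouse liver were lower at 4 d. Of 7 measured, 0 rose, 5 fell and Hsd3b5 (-0.34) and Keg1 (0.74) were not called, with a median of -1.41. Elovl3, an elongase of very long fatty acids, had log2 levels of 9.62, 7.46, 7.03, 7.65 and 6.06 at 4 d, against 10.08, 10.71, 10.93, 11.60 and 9.92 in control. Replicate 1 came close to the lowest controls, and the other 4 d arrays were far below them (-3.08 ± 0.43, 8.48-fold lower, limma adjusted p = 5.7e-07). Ugt2b38, a glucuronosyltransferase, fell by 1.93, and Slco1a1, Cyp7b1 and Cyp2d9, given above, were the remaining falls. Of 6 genes of the growth hormone axis, which sets this sex pattern, 0 were called by limma and 2 had an unadjusted p under 0.05.

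Other leading rises included secreted proteins and enzymes. Igfbp1, an insulin-repressed protein that binds insulin-like growth factors, had log2 levels of 12.09, 11.76, 11.42, 12.40 and 12.67 at 4 d, against 8.33, 7.44, 6.23, 5.97 and 7.39 in control (5.00 ± 0.49, 31.9-fold, limma adjusted p = 2.7e-10). Cpe, a carboxypeptidase that processes prohormones, had log2 levels of 8.13, 8.29, 7.14, 7.98 and 8.07 at 4 d, against 3.18, 3.06, 2.59, 4.27 and 3.20 in control (4.66 ± 0.42, limma adjusted p = 3.1e-11). Afp, the fetal counterpart of albumin, had log2 levels of 8.55, 8.30, 7.92, 7.45 and 7.87 at 4 d, against 5.14, 4.97, 5.39, 5.20 and 5.07 in control (2.86 ± 0.32), with 5.35 on its other probe set (limma adjusted p = 1.8e-12), and was the only one of 6 fetal liver genes to be called. In each of these genes the groups were fully apart, and replicate 3 was the lowest 4 d array for Igfbp1 and Cpe.

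Smoc2, a matricellular protein (3.76), Aqp8, a water channel (3.62), Cxcl1, a neutrophil chemokine (3.35), Ptgr1, which reduces reactive aldehydes (3.16), and Rdh11, a retinal reductase (3.08), were also among the largest rises. Egr1, an immediate early factor, had log2 levels of 9.71, 10.55, 10.32, 10.21 and 11.19 at 4 d, against 7.53, 7.24, 5.97, 6.74 and 6.38 in control. All 4 d arrays were above all controls (3.63), and Fos rose with it (2.20). Klf4, in the same list, fell by 0.98. Of the 13 measured genes of this immediate early list 2 rose, 1 fell and 10 were not called. Among genes of glucose metabolism G6pc, the glucose-6-phosphatase, rose by 1.91, and Pcx, the pyruvate carboxylase, fell by 0.49. Of 9 glycolysis genes 3 rose and 1 fell, with a median of 0.19. The rises were Pklr, given above, the pyruvate kinase Pkm (0.72) and the phosphoglycerate kinase Pgk1 (0.32), and the fall was Ldha, the lactate dehydrogenase (-0.65). Pkm was not called without replicate 1 or 5 of 4 d or control replicate 2, 3 or 4 (0.51 to 0.71).

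Leading falls outside the groups above were Moxd1, a relative of dopamine beta-hydroxylase, Inhbe, an activin subunit made by hepatocytes (-2.60), Dio1, a thyroid hormone deiodinase (-2.21), Phlda1 (-1.82), Serpina12, the adipokine vaspin (-1.77), and Oat, an ornithine aminotransferase of pericentral hepatocytes (-1.63). Moxd1 had log2 levels of 3.97, 4.58, 5.34, 4.12 and 4.98 at 4 d, against 7.95, 6.33, 6.86, 9.46 and 10.86 in control. The groups did not overlap, but the controls were widely spread (-3.69 ± 0.90, limma adjusted p = 0.0025). A dim second probe set of Serpina12, at 3.65 at 4 d and 3.97 in control, gave -0.32 (limma adjusted p = 0.44). Of 8 measured pericentral genes, Oat was the 1 that fell and Prodh the 1 that rose (0.81), and 6 were not called. The median of the pericentral list was -0.13, and the Prodh call was lost in 2 of 20 alternatives.

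Energy metabolism and acute phase genes showed few calls. Of 26 genes of oxidative phosphorylation Atp5g1 alone was called (0.39), and the median was 0.02. Of 5 periportal genes 0 were called by limma and 1 had an unadjusted p under 0.05. In the acute phase list Apcs, the serum amyloid P component, rose (1.45) and the other 11 genes were not called. Orm2 had log2 levels of 9.07, 10.49, 10.46, 9.97 and 11.37 at 4 d and 7.33, 7.48, 6.85, 7.06 and 12.48 in control, and Saa1 had 9.10, 10.47, 10.67, 10.36 and 12.39 at 4 d and 8.73, 9.24, 9.0, 10.33 and 13.43 in control. Control replicate 5 was far above the other controls for both of these plasma proteins. Of 20 complement and coagulation genes 6 rose, by 0.32 to 0.59, and 3 rose and 1 fell in the complement and coagulation list without control replicate 3.

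**Figure D2:**
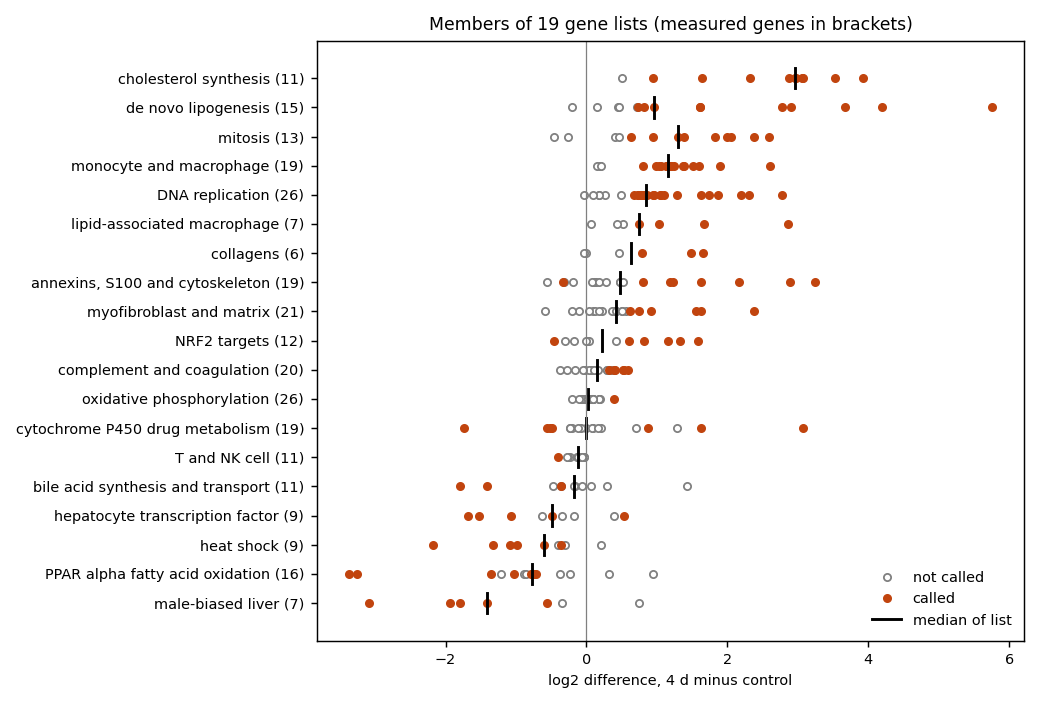
Log2 difference, 4 d minus control (horizontal axis), of each measured gene in the lists (rows, with the number of measured genes); filled points passed the limma threshold, open points did not, and black bars are list medians. The medians run from 2.96 for cholesterol synthesis to -1.41 for male-biased genes.

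Replicate 1 of 4 d differed from the other 4 d arrays. It lay outside their range for 3236 of all genes (54.1%), against 31.2% to 48.4% for the other 4 d arrays. It did so by more than 1 on the log2 scale for 31 genes, 23 above and 8 below, where replicates 2, 3, 4 and 5 did so for 2, 2, 2 and 6 genes. Its mean absolute difference from the mean of the others was 0.23, against 0.15 to 0.22 for replicates 2 to 5. It was the furthest of the 4 d arrays from the mean of control (0.36, others 0.29 to 0.32). Its distance from the mean of 2 d was 0.28, the lowest of the 5, with the others at 0.29 to 0.37. Replicate 1 was nearer to the means of 6 d and 8 d (0.25 each) than to that of 2 d.

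For several lists the genes on which replicate 1 lay above or below all other 4 d arrays were counted. The counts stand beside the 54.1% of all genes on which it lay outside them in either direction. The shares of all genes above and below them were not counted separately, so the counts in 1 direction have no matching share. These counts therefore do not set a list apart from all genes. Replicate 1 also had the highest mean log2 value of the 4 d arrays (6.40, others 6.25 to 6.38), which adds to counts above. Oxidative phosphorylation genes were above all other 4 d arrays in 25 of 26 cases, with a median gap of 0.17 to the mean of the others. Annexin, S100 and cytoskeleton genes were above them in 13 of 19 cases, matrix genes in 14 of 21, and complement and coagulation genes below them in 12 of 20. The median of the mitosis list, relative to the control mean, was 2.42 on replicate 1 and 0.80 to 1.33 on the others, and 11 of 13 of its genes were above all other 4 d arrays. Cdc20 had log2 levels of 8.79, 7.21, 6.31, 6.83 and 7.56 on replicates 1 to 5, Nusap1 8.10, 6.08, 5.65, 5.41 and 6.64, and Aspm, a spindle protein outside the lists, 5.73, 3.95, 3.69, 3.75 and 4.65. In each, replicate 1 was the highest and replicate 5 the next. The replication list was at 1.14 on replicate 1 and 0.74 to 0.98 on the others. Lipogenesis genes were above all other 4 d arrays in 11 of 15 cases, with a median gap of 0.57, with Me1 at 11.68 (others 9.48 to 10.07) and Pklr at 9.82 (others 7.62 to 8.35). The pentose phosphate list was at 1.22, with the others at 0.21 to 0.61.

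Further genes higher on replicate 1 were Elovl3 (9.62, others 6.06 to 7.65), Chil3 (7.27, others 3.89 to 5.77), S100a6 (9.28, others 6.11 to 7.74), Cyp1a1, a dioxin-inducible P450 (6.95, others 4.55 to 5.48), and Fgf21, a fasting hormone of the liver (7.0, others 4.47 to 4.87). For Elovl3 this placed replicate 1 nearer to the control range of 9.92 to 11.60, and for Fgf21 above the control range of 5.80 to 6.34. For Chil3 and S100a6 it was further from the control ranges of 3.08 to 3.60 and 3.24 to 4.59.

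Dbp, Nr1d2, Usp2 and Pck1 were among the genes furthest below the other 4 d arrays. The clock output factor Dbp was at 5.72 (others 8.72 to 9.43, control 7.51 to 9.23), the clock repressor Nr1d2 at 8.54 (others 10.03 to 10.32, control 9.38 to 10.03), and the rhythmic deubiquitinase Usp2 at 7.03 (others 8.48 to 8.85, control 6.85 to 9.17). Pck1, a key enzyme of gluconeogenesis, was at 10.46 (others 12.42 to 12.54, control 12.39 to 12.65). For Dbp, Nr1d2 and Pck1 replicate 1 was below all other arrays of both groups. In the clock list 4 of 9 genes lay below and 3 above all other 4 d arrays on replicate 1. Those above were Clock at 7.85 (others 6.66 to 7.28), Nfil3 at 8.34 (others 7.11 to 8.25) and Npas2 at 4.51 (others 4.07 to 4.36). Cyp26a1, which degrades retinoic acid, was at 6.89 (others 8.55 to 8.98, control 6.55 to 7.51). Mt1, a metallothionein (10.55, others 12.03 to 12.87), Saa1 (9.10, others 10.36 to 12.39), Orm2 (9.07, others 9.97 to 11.37), Ugt2b38 (4.89, others 6.16 to 6.84) and Prtn3, a protease of myeloid cells (5.49, others 6.18 to 8.80), were lower there too. The hour of collection and the severity of injury in single mice are not stated, and their part in these differences was not tested.

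The medians of some lists did not set replicate 1 apart. Cholesterol synthesis was at 2.92 (others 2.71 to 3.16), PPAR alpha at -0.82 (others -0.89 to -0.70) and macrophage genes at 1.38 (others 0.56 to 1.56). Of the genes in these lists 3 of 11, 6 of 16 and 6 of 19 lay above all other 4 d arrays, and 2, 4 and 1 below. Without replicate 1, 484 genes were higher and 357 lower than control in limma, and 793 of these were among the 988 called with it. The numbers of called lipogenesis, cholesterol, PPAR alpha, macrophage and male-biased genes were the same with and without replicate 1. Aspm (0.99) was not called without replicate 1 (0.65), Cyp1a1 (0.75) not without it (0.40) or control replicate 1 or 4 (0.70 and 0.65), and Emp1, a membrane protein (1.18), not without it (0.91) or control replicate 3 (1.07).

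**Figure D3:**
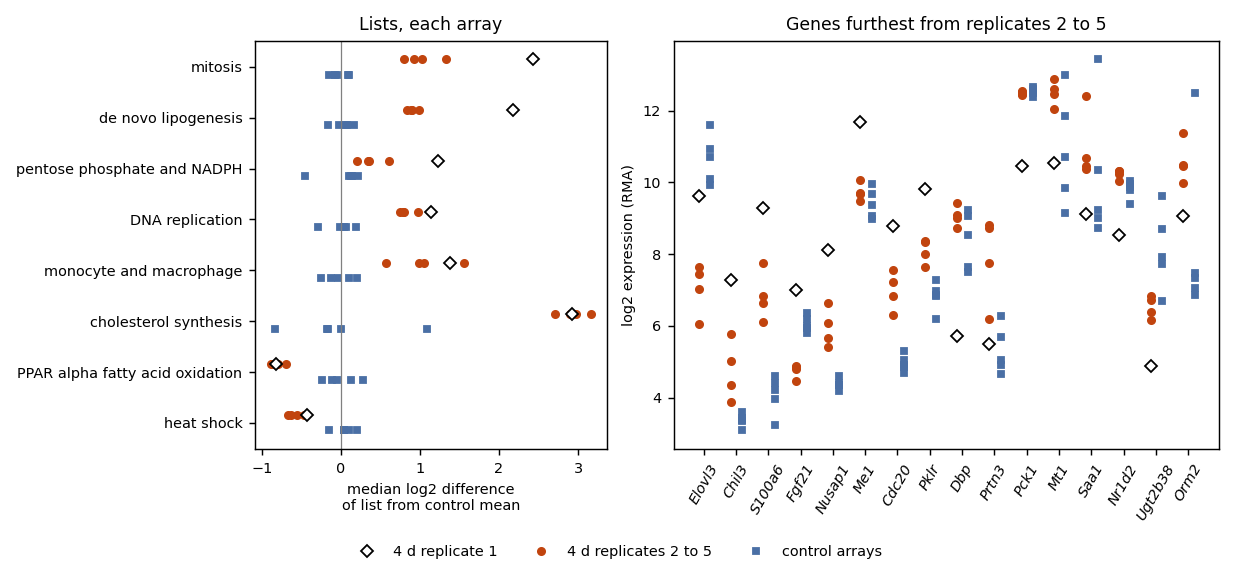
Left, median log2 difference of a list from the control mean (horizontal axis) on each array; right, log2 expression (vertical axis) of genes on which replicate 1 of 4 d was far from the other 4 d arrays. Open diamonds are replicate 1 of 4 d, orange circles replicates 2 to 5 and blue squares control arrays; replicate 1 is highest for mitosis (2.42) and for lipogenesis (2.17, where the list median of replicates 2, 4 and 5 is the value of Scd1, a probe set near saturation) and lowest for Dbp (5.72) and Pck1 (10.46).

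Against 2 d, lipid synthesis and P450 genes were higher and proliferation, matrix and macrophage genes lower at 4 d. The comparisons with control, 2 d and 6 d share the 4 d arrays. The control, 4 d and 6 d arrays were deposited with values for part of the probe sets, and the 2 d arrays with values for all. Whether they were processed apart is not given, so time and processing cannot be told apart against 2 d. In limma 345 genes (5.77%) were higher and 805 (13.5%) lower than at 2 d. This balance depended on the scaling: setting the arrays level by 31 ribosomal protein genes (ribosomal centring) raised the median difference by 0.29, with 2491 higher and 349 lower. The same centring raised the median difference by 0.01 against control and by 0.01 against 6 d. Lipogenesis was higher in 15 of 15 genes (median 1.67) and cholesterol synthesis in 10 of 11 (median 1.41), and with ribosomal centring in 15 and 11. Thrsp was 12.18 to 13.01 at 4 d, against 10.06, 6.08, 7.01, 7.46 and 5.89 at 2 d (5.26 ± 0.47, 38.2-fold, limma adjusted p = 1.5e-11). Elovl6 (3.79), Scd1 (3.71), Cyp7a1 (3.69) and Fasn (3.51) were the other leading rises. Of the P450 genes 13 of 19 were higher, among them Cyp2c29 (3.19), and PPAR alpha genes had 0 calls of 16 in limma (median -0.13), but 4 were higher with ribosomal centring (median 0.16).

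Replication genes were lower at 4 d than at 2 d in 22 of 26 cases (median -1.05) and mitosis genes in 6 of 13 (median -0.50), and with ribosomal centring in 17 and 4, with 0 and 1 higher. Acta2 was 5.85 to 6.94 at 4 d, against 9.70, 9.85, 9.78, 9.45 and 10.27 at 2 d. Every 4 d array was far below every 2 d array (-3.55 ± 0.24, 11.7-fold lower, limma adjusted p = 7.8e-15). In the matrix list 11 of 21 genes were lower and 2 higher than at 2 d (9 and 3 with ribosomal centring), and of the collagens 4 of 6 lower and 1 higher. Chil3 (-3.86), S100a6 (-3.44), Ccn2 (-3.15) and Emp1 (-3.01) were the other leading falls. Macrophage genes were lower in 10 of 19 cases (8 lower and 2 higher with ribosomal centring), while Lyz2 (0.27) and Ect2 (-0.36) were not called.

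Against 6 d fewer genes differed: 93 (1.56%) were higher and 49 (0.82%) lower at 4 d in limma. Cpe was 7.14 to 8.29 at 4 d, against 4.14, 4.85, 4.58, 6.38 and 3.90 at 6 d (3.15 ± 0.42, limma adjusted p = 2.8e-06). Afp was 7.45 to 8.55 at 4 d, against 5.74, 5.61, 5.11, 5.58 and 5.20 at 6 d (2.57 ± 0.32). S100a6 (2.68), Scd2 (2.47) and Smoc2 (2.33) were the other leading rises, and 9 of 26 replication, 7 of 13 mitosis and 4 of 15 lipogenesis genes were higher than at 6 d. Male-biased genes were lower than at 6 d in 5 of 7 cases (median -2.12). Elovl3 was 6.06 to 9.62 at 4 d, against 11.73, 11.28, 10.86, 10.27 and 10.52 at 6 d (-3.37 ± 0.43, limma adjusted p = 1.2e-06). Serpina12 (-3.47), Ugt2b38 (-3.33), Hsd3b5 (-3.02) and Slco1a1 (-2.12) were the other leading falls. Without replicate 3 of 4 d, 32 instead of 49 genes were lower than at 6 d. Of the cholesterol synthesis genes 1 of 11 was called, and Thrsp (1.00) and Foxa1 (0.00) were not.

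**Figure D4:**
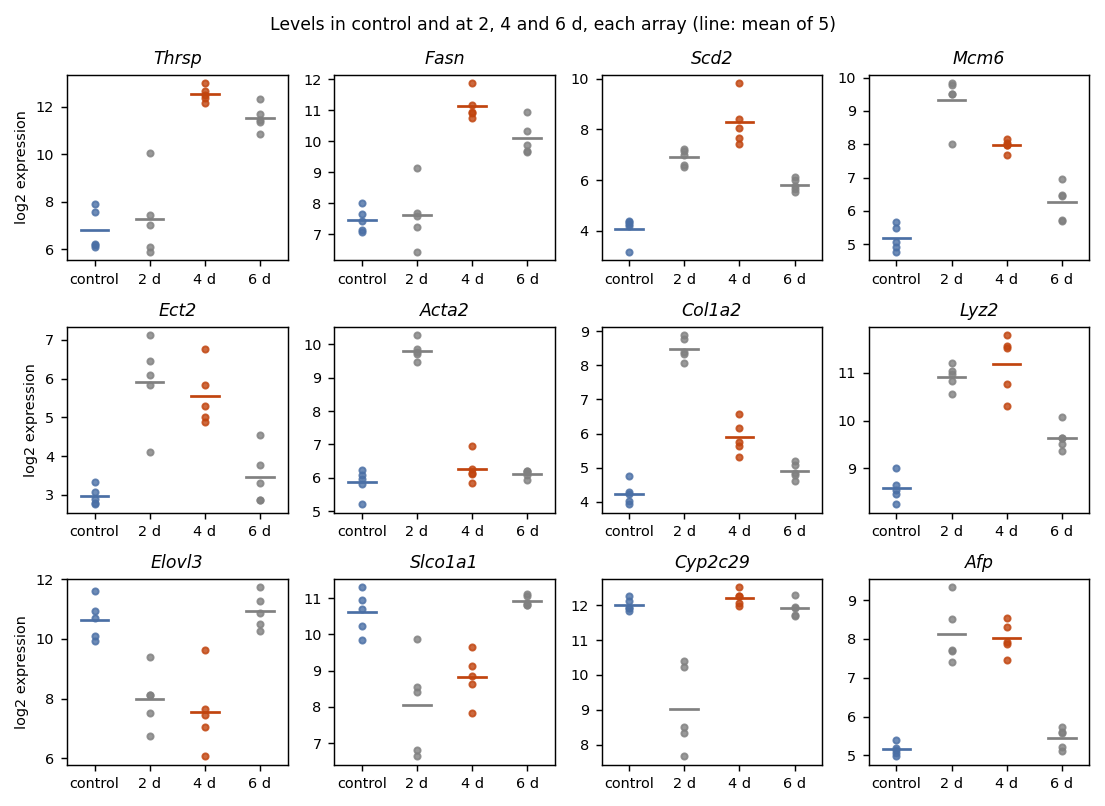
Log2 expression (vertical axes) on each array of control (blue), 2 d (grey), 4 d (orange) and 6 d (grey), from left to right; lines are means of 5 arrays. Mean Thrsp and Fasn are highest at 4 d and mean Acta2 at 2 d, and Elovl3 is lower at 4 d than in control and at 6 d.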

How the data were processed

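Liver RNA of 10 groups of mice was measured on Affymetrix mouse genome arrays. Per the submitters' processing notes, the authors used oligo 1.52.0 and RMA, and the deposited values are log2 expression per probe set and array. RMA corrects background, quantile normalizes and summarises probes. The sources used here do not give whether this was 1 run. Of the arrays, 25 held all 45101 probe sets and 24 held 8137 or 8138, so the 8137 with a value on all 49 arrays were used. The 24 were the control, 6 h, 4 d, 6 d and 8 d arrays. The platform annotation gave 1 symbol for 7370, several for 223 and none for 544, and 3 symbols were updated. Each of the 5976 genes was represented by its brightest probe set, by the mean over the 49 arrays.

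Values were taken as deposited, with no filter. The test was that of limma 3.58.1 (R 4.3.3), with lmFit, contrasts.fit and default eBayes, 1 mean per group over the 49 arrays and no block. Counts of genes differing 2-fold use a log2 difference of at least 1. The fit was tested on simulated data. Arrays have no sequencing depth, and their number limits the precision. Of 39 named genes with several probe sets, 0 had called probe sets of opposite sign.

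Genes named are the 15 largest rises and 15 largest falls against control, and 5 each against 2 d and 6 d, among called genes whose arrays did not overlap; the 10 genes furthest above and 10 furthest below the other 4 d arrays on replicate 1; and members of 48 lists. The members and lists were chosen with earlier results of these data known. Alternatives for probe sets were the mean of all probe sets, no marked probe sets and no genes under log2 5. Marked probe sets have names ending in _s_at, _x_at or _a_at, for possible binding of other transcripts of the same or another gene. Other alternatives were robust eBayes with trend, array weights, quantile normalization, ribosomal centring, the compared groups alone, a replicate block and leaving out each array. Tables and figures were made with pandas 2.3.3, numpy 2.4.6 and matplotlib 3.10.9.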

Additional observations from a re-analysis of the deposited data

Results flagged for a closer look

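An array was singled out here when its gap to the nearest of the other 4 arrays of its group, over the range of the group, was above Dixon's critical value of 0.71 for 5 samples. Chance alone singles out about 1 in 20 groups. Of 472 tests (236 genes, each in 4 d and in control) 41 met this, 16 of them on replicate 1 of 4 d. The genes include 20 that were chosen because they lay furthest from the others on that array and that gave 7 of its 16, and the other genes were chosen with values known, so these counts cannot be read against chance. Gaps are given on the log2 scale.

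Replicate 1 of 4 d was high for Aqp8 (1.27), Elovl6 (0.861), Fgf21 (2.13), Me1 (1.61), Acss2 (0.597), Elovl5 (0.718), Pgd (1.02), Cdkn1a (1.03), Gpr182 (0.378) and Rfc1 (0.281). Several of these are lipid synthesis or NADPH genes. It was low for Dbp (3.00), Pck1 (1.97), Cyp26a1 (1.66), Nr1d2 (1.49), Usp2 (1.45) and Cyp2c55 (0.950), of which Dbp, Nr1d2 and Usp2 follow the circadian clock. Among the other 4 d arrays, replicate 2 was low for Vnn1 (0.761), replicate 3 for Cpe (0.844) and Dnajb1 (0.168), and replicate 5 for Pparg (0.689).

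Control replicate 3 was low for Scd2 (1.00), Rdh11 (1.26), Acss2 (0.762), Pgd (0.816), Rpia (1.03), Cdkn2c (0.581), Gsr (0.477), Apoa1 (0.0877) and Gpr182 (0.456), and high for Mad2l1 (0.845) and Col1a1 (0.729). Control replicate 5 was high for Orm2 (5.00) and Ambp (0.238) and low for Fabp1 (0.214) and Apoa2 (0.0717). Control replicate 2 was low for Fads2 (1.93), Dnajb1 (0.802) and Hnf4a (1.26), control replicate 4 was high for Serpina12 (1.23) and Mvd (1.23), and control replicate 1 was high for Abcd2 (2.18).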

How the results depend on the processing

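Between 4 d and control, array weights gave 803 genes lower, quantile normalization 749, and a fit of the compared groups alone 225, against 391. The counts higher than control moved by less than 1.5 times in each alternative that was fixed in advance. Between 4 d and 2 d, array weights gave 547 higher and 1232 lower, quantile normalization 569 higher, and ribosomal centring 2491 higher and 349 lower. Between 4 d and 6 d, array weights gave 282 higher and 309 lower, quantile normalization 92 lower, and the compared groups alone 208 higher and 171 lower. The causes were not tested. Leaving out single arrays gave 484 to 580 genes higher and 276 to 546 lower than control, 268 to 342 and 555 to 861 against 2 d, and 69 to 93 and 32 to 51 against 6 d. With the replicate number as a block the counts were 645 higher and 470 lower than control, 378 and 870 against 2 d, and 100 and 60 against 6 d. Same-numbered 4 d and control arrays had correlations of -0.11 to 0.37 in their deviations from the group means, and not every array correlated best with its own number, so the numbers were not taken as pairs. Leaving out replicate 1 of 4 d and control replicate 3 together, an alternative chosen after seeing the data, gave 405 higher and 539 lower than control. Of the 236 genes followed through the alternatives, those that were called turned direction in 0 cases. Signal near background or near saturation limits the differences of dim and very bright genes.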

Other observations

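Of 13 measured interferon-induced genes 2 rose at 4 d against control, where 9.99% of all genes were called higher, and 0 fell. The rises were Ifit2 (1.63), an antiviral protein, and Psmb8 (0.82), an immunoproteasome subunit. The median of the interferon list was 0.21, and 5 of its genes were higher at an unadjusted p under 0.05 in limma. Of 14 chemokines and cytokines Cxcl1 rose, Tnf fell by 0.28 near background, a call lost without any 1 of replicates 1, 3 and 5 of 4 d or 1, 3 and 4 of control (-0.23 to -0.28), and Cxcl13, a B cell chemokine, fell by 1.33, a call lost when any 1 of replicates 1 to 4 of 4 d or 2, 4 and 5 of control was left out (-1.07 to -1.38). Of 7 p53 targets Ccng1 rose (0.57), but not without any 1 of replicates 1, 2 and 3 of 4 d or 3, 4 and 5 of control (0.40 to 0.55), and of 9 clock genes Per3 rose (1.11), with 0.05 on a dimmer probe set. Pparg, the fat cell receptor, fell by 0.78 (not called without replicate 5 of 4 d, -0.62). Cd36, a fatty acid transporter, rose by 0.80, a call lost without replicate 1 of 4 d or control replicate 4 or 5 (0.62 to 0.72).

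Markers of tissues next to the liver were also looked at in limma. Of 5 pancreatic acinar genes Prss2, a trypsinogen, alone was called (-0.38), and not without control replicate 3 (-0.29). Of 3 adipocyte genes Fabp4 rose (0.88), a call lost without replicate 1 or 2 of 4 d or control replicate 3 or 4 (0.68 to 0.87). Of 4 muscle and 2 erythroid genes 0 were called, and 0 had an unadjusted p under 0.05. Of 7 female-biased liver genes 2 rose, Abcd2, a peroxisomal transporter (1.64), and Prom1, and 0 fell.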
